A study of Mus musculus with 4 samples.

Results

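The 31 genes described here encode enzymes of cholesterol synthesis and fatty acid synthesis, their main regulators, and sterol carriers and exporters. They were chosen by symbol, and all 31 were among the 24061 gene rows of the count table and among the 13022 genes tested. The cells were effector regulatory T cells (CD4+FoxP3+CD62L-) sorted from Peyer's patches, the lymphoid follicles of the small intestine, of 13-week-old mice on a C57BL/6 background after 5 backcrosses. All mice carried FoxP3-YFP-cre, in which Foxp3, the gene that defines this lineage, drives a Cre recombinase joined to a yellow fluorescent protein. By their labels, 2 libraries were Maf+/+ (wt 1 and wt 2) and 2 were Mafflox/flox (flox 1 and flox 2), each from about 40000 cells. Whether the libraries of a label came from separate animals is not stated, so p-values here reflect the spread among these 4 libraries alone, and that spread may be technical.

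Maf encodes c-Maf, the transcription factor that the floxed allele is meant to remove. Its level was 149 CPM (read counts scaled to a common library size) in the library labelled wt 1, 122 in flox 1, 1.98 in wt 2 and 0.726 in flox 2. Maf was therefore high in both libraries numbered 1 and low in both numbered 2, against the labels of flox 1 and wt 2. The genes were compared in both ways: libraries numbered 1 against those numbered 2, and labelled flox against labelled wt. A difference by number runs with the measured Maf level and is not a difference between labelled genotypes. The number and anything else that separates both pairs cannot be told apart. Values of the libraries follow below in the order labelled wt 1, labelled flox 1, labelled wt 2, labelled flox 2, so that the libraries numbered 1 come first. Gene totals ran from 19368745 to 24687897 counts, and 3 counts corresponded to 0.123 to 0.148 CPM.

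Cholesterol is built from acetyl-CoA through mevalonate and the isoprenoids to squalene, which is closed into lanosterol and trimmed to cholesterol. The genes of this route are switched on together by SREBP2, a membrane-bound transcription factor encoded by Srebf2, which is released when sterols are scarce, while SREBP1 (Srebf1) acts mainly on fatty acid synthesis. INSIG proteins hold the SREBPs in the endoplasmic reticulum when sterols are plentiful, and Insig1 is itself a target of SREBP. Oxidised sterols activate the liver X receptors (LXR), which raise the exporters Abca1 and Abcg1. T cells raise both routes when they are activated and need membrane.

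Promoter windows of 300 bases (250 before and 50 after the start site) were read from RefSeq on GRCm38.p6 for 23 of the 31 genes, 28 windows in all. Abcg1, Fads1, Fdft1, Fdps, Scd1, Scd2, Sqle and Stard4 had no entry. Exact matches on both strands were searched for TCACNCCAC (a consensus of the sterol regulatory element that SREBP binds), CCAAT (the box of NF-Y, a partner of SREBP) and TGCTGA (the core of a Maf recognition element). The windows below are those of Insig1, Srebf2, Cyp51 and Hmgcs1. Insig1 passed the test by number, and Hmgcs1 was the 1 gene with an exact match of the sterol consensus. Srebf2 and Cyp51 were taken because they hold a Maf motif and had among the smallest p after Insig1. Dhcr7 and Elovl6 had smaller p than both, and like Insig1 had no Maf motif in their windows. Among the other genes with a Maf motif, the log2 fold change by number was 0.05 for Sc5d, 0.01 for Srebf1 and -0.69 for Abca1. In the order given first, the windows lie at chr5:28071162-28071461 (plus strand), chr15:82147019-82147318 (plus), chr5:4104648-4104947 (minus) and chr13:119690101-119690400 (plus). Capitals mark the matches of the 3 motifs.
Insig1: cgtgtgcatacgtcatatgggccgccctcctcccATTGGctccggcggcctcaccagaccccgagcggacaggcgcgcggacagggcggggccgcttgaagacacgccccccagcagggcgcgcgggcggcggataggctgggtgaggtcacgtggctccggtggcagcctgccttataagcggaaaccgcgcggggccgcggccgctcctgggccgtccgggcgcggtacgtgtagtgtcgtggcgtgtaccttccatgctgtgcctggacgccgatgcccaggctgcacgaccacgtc
Srebf2: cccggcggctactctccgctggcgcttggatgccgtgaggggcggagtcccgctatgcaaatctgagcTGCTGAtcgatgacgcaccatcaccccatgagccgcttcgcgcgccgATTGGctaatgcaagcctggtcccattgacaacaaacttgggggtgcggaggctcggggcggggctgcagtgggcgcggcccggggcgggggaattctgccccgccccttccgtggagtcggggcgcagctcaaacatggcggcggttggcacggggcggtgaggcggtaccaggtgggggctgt
Cyp51: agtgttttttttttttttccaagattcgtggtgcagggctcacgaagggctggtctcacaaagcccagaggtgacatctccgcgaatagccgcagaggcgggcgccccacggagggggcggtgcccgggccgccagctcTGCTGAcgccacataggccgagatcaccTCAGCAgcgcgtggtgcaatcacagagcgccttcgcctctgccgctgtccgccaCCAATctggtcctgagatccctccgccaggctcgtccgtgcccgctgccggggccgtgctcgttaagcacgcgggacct
Hmgcs1: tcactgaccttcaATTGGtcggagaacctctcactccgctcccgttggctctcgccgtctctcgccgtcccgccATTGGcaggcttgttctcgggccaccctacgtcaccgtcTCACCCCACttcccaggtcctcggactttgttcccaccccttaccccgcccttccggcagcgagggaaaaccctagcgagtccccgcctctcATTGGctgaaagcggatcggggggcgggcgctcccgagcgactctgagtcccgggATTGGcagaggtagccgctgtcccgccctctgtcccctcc

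An exact match of the sterol consensus was present in 1 of the 28 windows (3.57%). The share was 1.11% of the 12478 windows of tested genes and 1.24% of all 32851 windows in the table. Forms of the sterol element that differ from this consensus were not searched for, so a window without a match may still hold one. The match starts 137 bases before the start site of Hmgcs1, which also holds 4 NF-Y boxes. An NF-Y box was present in 18 windows (64.3%), against 37.7% of windows of tested genes and 37.4% of all windows. Mvk held 5, Nsdhl 4, and Fasn, Hsd17b7 and Msmo1 3 each. The Maf motif was present in 6 windows (21.4%), of Abca1, Cyp51, Sc5d, Srebf1 (2 windows) and Srebf2, against 15.8% and 19.5%. In Sc5d and in 1 window of Srebf1 it shares 1 base with an NF-Y box. A match is a description of the letters and not a binding site, and base composition was not matched between these sets.

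Insig1 was higher in the libraries numbered 1, the 1 member of 31 called by number (edgeR quasi-likelihood, Benjamini-Hochberg adjusted p under 0.05 over all 13022 genes). Over all tested genes 1.41% were called higher and 0.399% lower by number. At an unadjusted p under 0.05, 11 members were higher and 2 lower in the libraries numbered 1, where 8.12% and 5.45% of all genes were. Both libraries numbered 1 lay above both numbered 2 for 14 members and below them for 4, against 22.5% and 22.7% of all genes. The median log2 fold change was 0.05 over the members and -0.01 over all tested genes. The median hides unequal arms, which were 0.52 for the 7 mevalonate genes, 0.26 for the 9 sterol genes and -0.01 for the 8 fatty acid genes. These arms hold members only. For 9 other sterol synthesis genes the median was -0.13, so the arm medians do not stand for the whole route. Of the 12 B cell markers tested by number, 10 had a positive log2 fold change, with a median of 0.68, 2 at an unadjusted p under 0.05 and 0 that passed. Among them Cr2, a complement receptor of B cells, had 4.47, 3.6, 1.14 and 1.16 CPM, and the part of such cells in the lipid genes was not tested. DESeq2 called 6 members by number, against 5.01% of the genes it tested. Leaving out the library labelled flox 1 lowered the mevalonate median to 0.28 and left 0 members called.

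**Figure D1:**
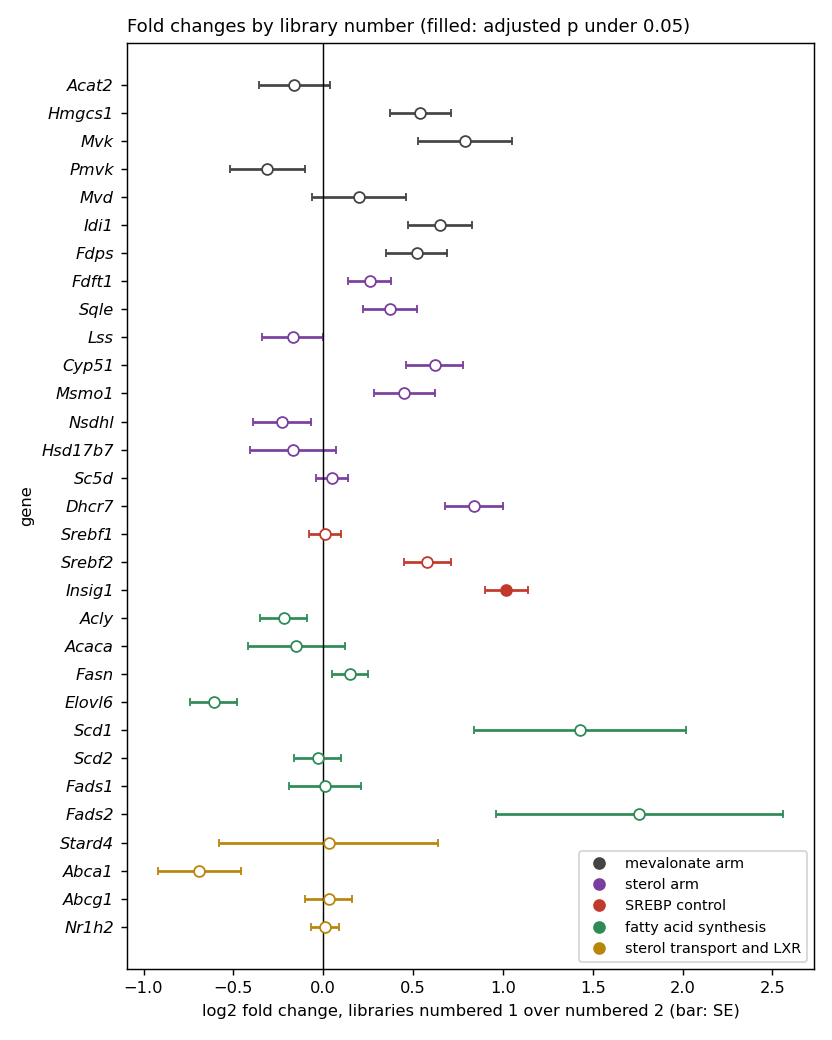
Log2 fold change of CPM of the 31 genes (rows, coloured by role), libraries numbered 1 over libraries numbered 2, with bars of 1 SE from the edgeR fit over 4 libraries. The filled point, Insig1 at 1.02, passed the test, and the open points did not. Scd1, Fads2 and Stard4 have the widest bars.

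Among the regulators, Insig1 (chromosome 5, 28071363 to 28078662, plus strand, mm10) had 98.2, 120, 54.2 and 53.4 CPM. Both libraries numbered 2 sat at nearly the same level, and both numbered 1 lay above them. The mean was 109 ± 15.5 CPM in the libraries numbered 1 and 53.8 ± 0.563 in those numbered 2 (SD, n = 2). The log2 fold change was 1.02 (SE 0.12, edgeR quasi-likelihood adjusted p = 0.0152), a 2.03-fold higher level. Within the wt label the library numbered 1 was 1.81 times as high as the one numbered 2 (95% interval from counting error 1.68 to 1.95), and within the flox label 2.25 times (2.1 to 2.41). Without the library labelled flox 1 the log2 fold change was 0.87 and edgeR's adjusted p was 0.0551, so the call then fell just short of the threshold.

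Srebf2 (chromosome 15, 82147181 to 82205379, plus strand) had 257, 255, 192 and 151 CPM. The groups by number did not overlap, and the lowest library was labelled flox 2. Its log2 fold change was 0.58 (SE 0.13), with an edgeR adjusted p = 0.0958, which missed the threshold. The difference was present within both labels, at 1.33 times (1.28 to 1.39) within wt and 1.69 times (1.62 to 1.77) within flox. Srebf1 gave no such difference. Its levels were 137, 150, 142 and 144 CPM. The log2 fold change by number was 0.01 (SE 0.09), and its sign turned with the scaling of the libraries.

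**Figure D2:**
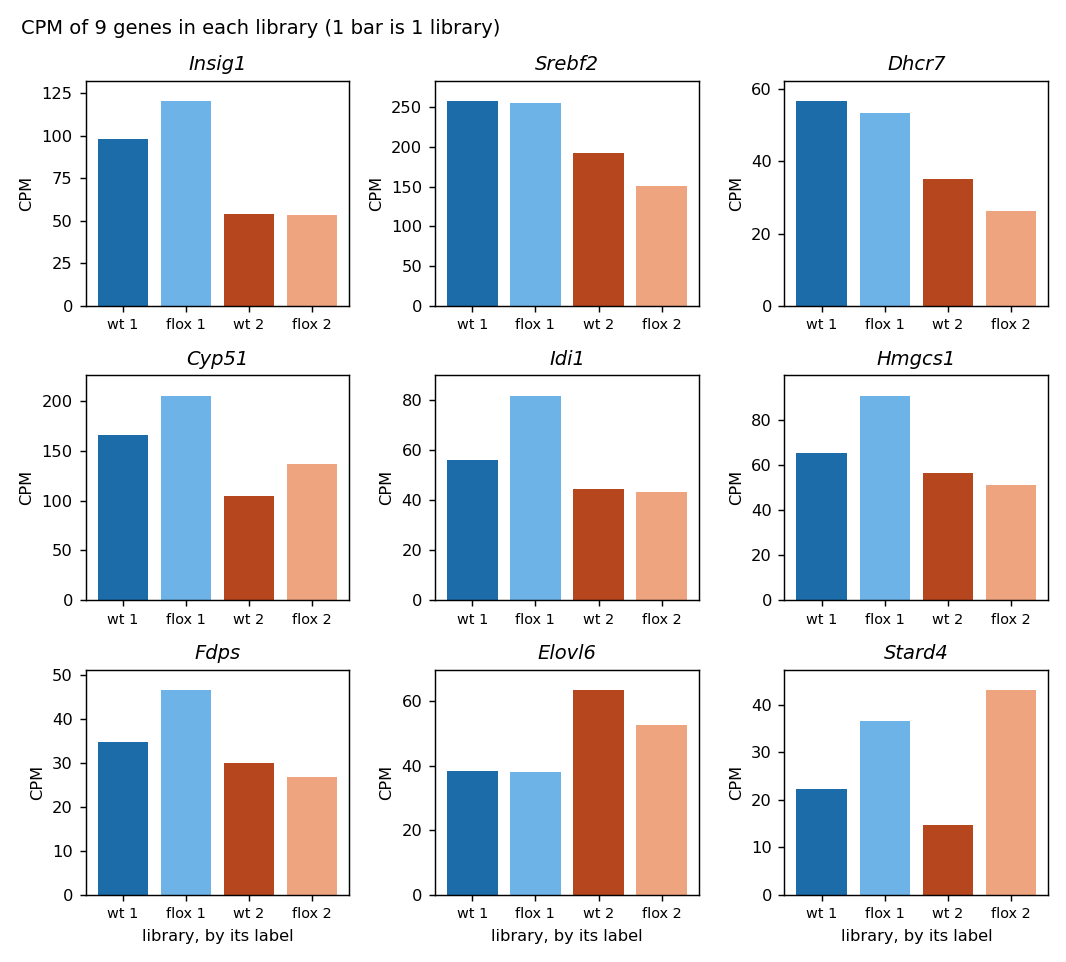
CPM of 9 of the genes in each of the 4 libraries (1 bar per library, axis from 0), with the libraries numbered 1 in blue and those numbered 2 in brown. Insig1, Srebf2, Dhcr7, Cyp51, Idi1, Hmgcs1 and Fdps are higher in both blue bars, and Elovl6 is lower in both. Insig1, Cyp51, Idi1, Hmgcs1 and Fdps are highest in the library labelled flox 1, and Srebf2 and Dhcr7 in wt 1. Stard4 is higher in both libraries labelled flox.

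In the mevalonate arm, 0 of 7 genes passed the test by number. At an unadjusted edgeR p under 0.05, 4 were higher and 0 lower in the libraries numbered 1, against 8.12% and 5.45% of all tested genes. Hmgcs1, the synthase at the head of the mevalonate arm, had 65.3, 90.6, 56.5 and 51.2 CPM (log2 ratio by number 0.54, SE 0.17, edgeR adjusted p = 0.233). Idi1, the isomerase of the isoprenoid unit, had 56.3, 81.8, 44.6 and 43.4 CPM (0.65, SE 0.18, adjusted p = 0.188). Fdps, which joins these units to farnesyl diphosphate, had 34.8, 46.5, 30 and 26.7 CPM (0.52, SE 0.17, adjusted p = 0.253). For all 3 the library labelled flox 1 was the highest and flox 2 the lowest, and the ratio within flox exceeded that within wt. For Hmgcs1 these ratios were 1.77 (1.64 to 1.91) and 1.16 (1.07 to 1.25), and for Idi1 1.88 (1.74 to 2.04) and 1.26 (1.15 to 1.38). Mvk, mevalonate kinase, was low throughout at 8.75, 10.5, 6.03 and 5.13 CPM, with a log2 fold change of 0.79 (SE 0.26, adjusted p = 0.25).

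The other 3 enzymes of this arm had no shared direction. Mvd, which decarboxylates mevalonate diphosphate, had 11.7, 19.5, 13.3 and 13.8 CPM, so that flox 1 alone stood out. Acat2, which condenses acetyl-CoA, had 14.1, 17.7, 19.8 and 15.7 CPM. Pmvk, the second kinase of the arm, had 8.9, 8.28, 10.7 and 10.6 CPM. It was lower in both libraries numbered 1 (log2 fold change -0.31, SE 0.21). By number the 3 had edgeR adjusted p-values from 0.609 to 0.821.

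In the sterol arm, 0 of 9 genes passed by number. At an unadjusted edgeR p under 0.05, 4 were higher and 0 lower in the libraries numbered 1, against the same 8.12% and 5.45%. Dhcr7, which carries out the last reduction to cholesterol, had 56.6, 53.4, 35.1 and 26.4 CPM. Its groups by number were well apart, with ratios of 1.61 (1.47 to 1.77) within wt and 2.03 (1.83 to 2.24) within flox. The log2 fold change was 0.84 (SE 0.16), and edgeR's adjusted p = 0.0683 missed the threshold. Cyp51, the lanosterol demethylase, had 166, 205, 105 and 137 CPM (log2 ratio by number 0.62, SE 0.16, adjusted p = 0.173). Its ratios within both labels were close, at 1.58 (1.5 to 1.67) and 1.5 (1.43 to 1.57). With the label as a further term in the fit, Cyp51 passed the edgeR test (adjusted p = 0.0388).

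Sqle, which oxidises squalene and is a control point of the route, had 48.2, 60.3, 45.5 and 38.6 CPM. Msmo1, a sterol methyl oxidase, had 50.9, 70.9, 47.2 and 42.2 CPM. For both, libraries labelled wt differed by no more than counting error allows (Sqle ratio 1.06, 0.968 to 1.16; Msmo1 1.08, 0.988 to 1.18), while flox 1 exceeded flox 2 by 1.56 and 1.68 times. Fdft1, the squalene synthase, had 47.8, 44.5, 40.8 and 36.2 CPM, with a small difference in the same direction (log2 fold change 0.26, SE 0.12, edgeR adjusted p = 0.429). Lss, which closes squalene epoxide to lanosterol, had 17.7, 18.8, 22.7 and 18.5 CPM. Nsdhl, a sterol dehydrogenase, had 24.1, 29.7, 33.2 and 29.7, Hsd17b7, which reduces sterol ketones, 9.38, 12.9, 11.3 and 13.8, and Sc5d, the sterol desaturase, 115, 107, 106 and 109 CPM. None of these 4 had an unadjusted p under 0.05, and Sc5d was the steadiest gene of the arm.

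**Figure D3:**
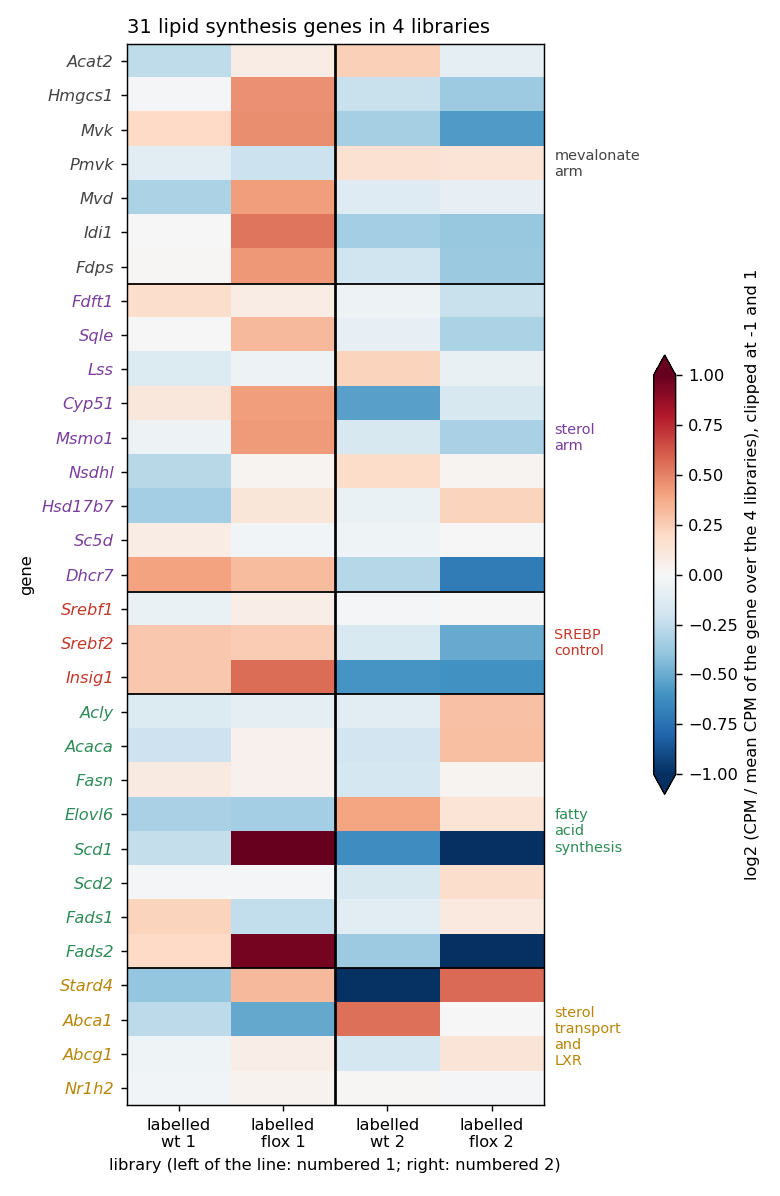
Log2 of the CPM of each gene over its mean in the 4 libraries, for the 31 genes (rows, grouped by role) and the 4 libraries (columns, with those numbered 1 left of the line), clipped at -1 and 1. The column of the library labelled flox 1 is the reddest in the mevalonate arm, where it is highest for 5 of 7 genes.

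The library labelled flox 1 was the highest of the 4 for 13 of the 31 members, against 22.3% of all tested genes, and for 5 of 7 mevalonate genes. The libraries labelled wt 1, wt 2 and flox 2 were the highest for 6 members each, against 24.3%, 27.2% and 26.1%. Flox 2 was the lowest library for Hmgcs1, Mvk, Idi1, Fdps, Fdft1, Sqle, Msmo1, Dhcr7, Srebf2, Insig1, Scd1 and Fads2. It was the lowest for 25.5% of all tested genes. A larger ratio within flox can thus come from a high flox 1, a low flox 2 or both. Between both libraries with high Maf, the median log2 ratio of flox 1 over wt 1 was 0.42 in the mevalonate arm and 0.3 in the sterol arm, and -0.01 over the other 12991 tested genes. Between both libraries with low Maf, flox 2 over wt 2 had medians of -0.14 and -0.16 in these arms. Summed levels of markers of other cells were also highest in flox 1, for the epithelial list by little over wt 2. The summed level of 13 B cell markers was 63.3, 117, 79.6 and 57 CPM, that of 14 myeloid markers 17.1, 108, 70.1 and 60.7 CPM, and that of 17 epithelial markers 450, 788, 764 and 582 CPM. Among single markers, Cd79a had 8.56, 21.3, 11.8 and 4.06 CPM, Lyz2 had 7.97, 66.9, 41.2 and 42.9, and Epcam, which was highest in wt 2, had 75.8, 91.9, 140 and 89.2. Cd79a had one of the wider ranges of its list. Its highest library was 5.24 times its lowest, where the 13 B cell markers ran from 1.55 to 5.34 times. Of the tested markers, flox 1 was the highest library for 8 of 12 B cell, 8 of 12 myeloid and 7 of 16 epithelial ones, and wt 2 for 6 of the epithelial ones. Of the myeloid list, 1 marker (Fcgr1) had 0 counts in every library, and 3 were at 0 counts in wt 1. No B cell or epithelial marker was at 0. The part of such cells in the levels of the lipid genes was not tested.

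Regulatory T cell markers were present in every library, with Foxp3 at 93.8, 91, 104 and 104 CPM and Cd4 at 983, 920, 998 and 973. Of the 8 markers 1 passed by number, Ctla4, an inhibitory receptor, with 3340, 3340, 1630 and 2080 CPM (log2 ratio 0.85, SE 0.12, edgeR adjusted p = 0.027). Il2ra, the interleukin-2 receptor alpha chain, had 454, 401, 503 and 510 CPM (-0.24, SE 0.09, edgeR adjusted p = 0.303). The 15 cell cycle genes summed to 901, 867, 892 and 882 CPM, a sum to which Mcm6, at 341 to 408 CPM, gave the most. By number 9 of the 15 were lower and 6 higher in the libraries numbered 1 (median log2 fold change -0.19), 3 lower and 1 higher at an unadjusted p under 0.05, and 0 passed. Mki67, a proliferation marker, had 23.1, 21.9, 36.1 and 28.4 CPM. The 10 heat shock genes summed to 3270, 3880, 3300 and 10000 CPM, so that flox 2 stood apart from the rest. Whether this bears on the low lipid gene levels of flox 2 was not tested. In bulk samples, fewer cells of a type and less RNA per cell cannot be told apart.

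**Figure D4:**
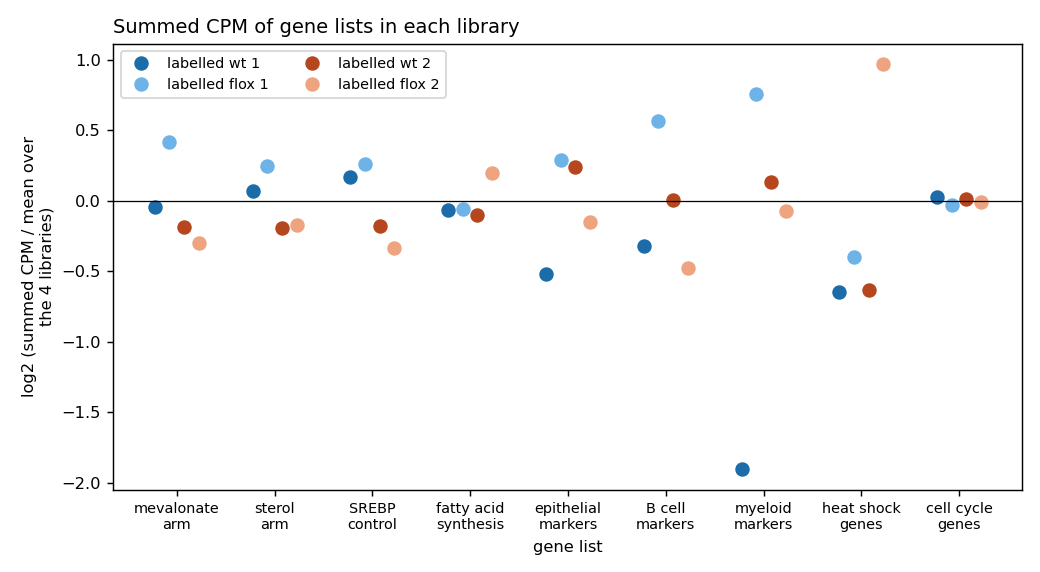
Log2 of the summed CPM of each gene list over its mean in the 4 libraries (points, 1 per library; blue numbered 1, brown numbered 2). The mevalonate, sterol and regulator lists are highest in flox 1, as are the summed B cell, myeloid and, by little, epithelial markers, and the heat shock genes are highest in flox 2.

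Fatty acid synthesis held no gene that passed by number in the main fit. Acly, which supplies acetyl-CoA from citrate, had 428, 440, 437 and 576 CPM (log2 ratio by number -0.22, SE 0.13). The high value was that of the library labelled flox 2. Its ratio of library 1 to library 2 was 0.981 (0.952 to 1.01) within wt and 0.763 (0.743 to 0.783) within flox. Fasn, the fatty acid synthase, had 216, 209, 179 and 206 CPM (log2 ratio by number 0.15, SE 0.10), and Acaca, which makes malonyl-CoA, had 7.68, 9.14, 7.76 and 10.9. Scd2, a desaturase, had 80.4, 80.9, 72.8 and 91.8 CPM, and Fads1, another, had 27.3, 19.8, 21.6 and 25. For Scd2 and Fads1 the counts differed in opposite directions within both labels.

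Elovl6, which elongates palmitate, went the other way. It had 38.3, 37.9, 63.3 and 52.7 CPM, so that both libraries numbered 1 were almost equal and lay below both numbered 2. The log2 fold change was -0.61 (SE 0.13), and edgeR's adjusted p = 0.0901 missed the threshold. It was 0.605 times as high in library 1 as in library 2 within wt (0.553 to 0.662) and 0.719 times within flox (0.658 to 0.786).

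Scd1 and Fads2 had the largest fitted folds of the set and the fewest counts. Scd1 had 41, 119, 31 and 21 counts (1.99, 4.87, 1.53 and 1.02 CPM), and Fads2, a further desaturase, had 60, 121, 40 and 7 counts (2.92, 4.96, 1.98 and 0.339 CPM). Within flox the ratios were 4.8 (3 to 8.04) and 14.6 (6.89 to 37.2), while within wt the intervals included 1 (0.796 to 2.14 and 0.972 to 2.26). By number edgeR's adjusted p was 0.36 for Scd1 and 0.414 for Fads2. Both were highest in flox 1, the library with the highest B cell and myeloid marker levels given above. Both were lowest in flox 2, the library with the highest heat shock sum. The part of either was not tested.

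**Figure D5:**
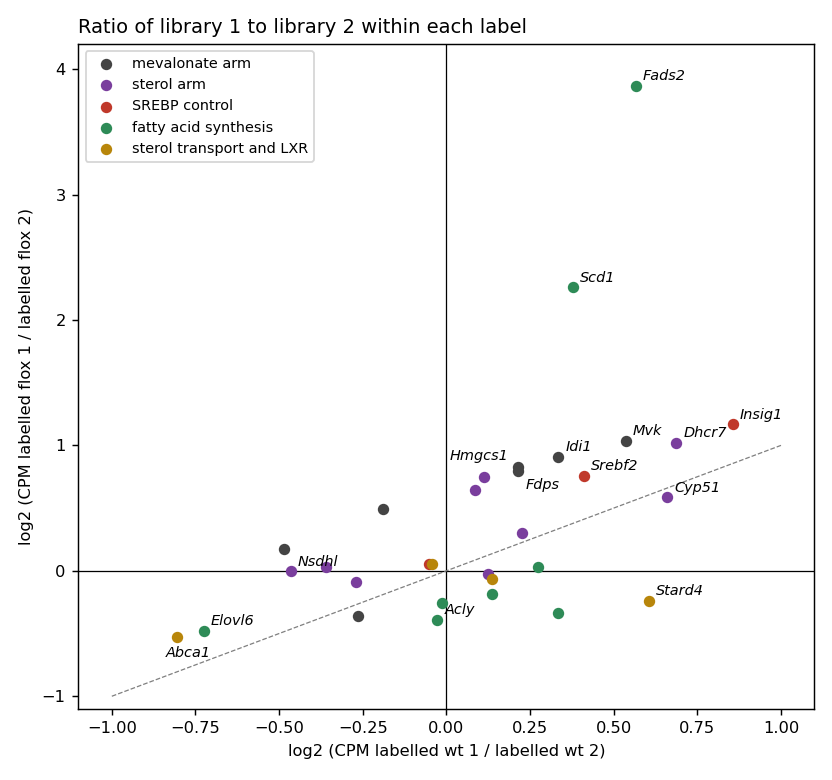
Log2 ratio of the library numbered 1 to the library numbered 2, within the wt label (x axis) and within the flox label (y axis), for the 31 genes (points, coloured by role). The dashed line marks equal ratios. Insig1, Dhcr7, Srebf2, Cyp51 and Mvk are among the genes above 0 on both axes, and Elovl6 and Abca1 among those below 0 on both. Scd1 and Fads2 lie highest on the flox axis.

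With counting error alone, the library numbered 1 exceeded that numbered 2 within both labels for 9 genes (Insig1, Srebf2, Dhcr7, Cyp51, Mvk, Idi1, Hmgcs1, Fdps and Fdft1), as did 13% of all tested genes. For 2 genes, Elovl6 and Abca1, it was lower within both labels, against 11.3%. It was higher within flox only for 5 genes (Mvd, Sqle, Msmo1, Scd1 and Fads2), against 15%, and within wt only for 6 (Sc5d, Fasn, Scd2, Fads1, Stard4 and Abcg1), against 14.8%. It was lower within flox only for 5 (Pmvk, Acly, Scd2, Fads1 and Stard4), against 16.2%, and within wt only for 3 (Acat2, Lss and Nsdhl), against 17.2%. Scd2, Fads1 and Stard4 thus went opposite ways within both labels, as did 10.7% of all tested genes. For Hsd17b7, Srebf1, Acaca and Nr1h2 both intervals included 1, against 23.2%. Such intervals do not hold the variation between animals or sorts.

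Among the genes of sterol export and transport, Abca1, the LXR target that exports cholesterol, had 13.7, 11.5, 24 and 16.5 CPM. It was lower in both libraries numbered 1 (log2 fold change -0.69, SE 0.23, edgeR adjusted p = 0.257). Abcg1, a second exporter, had 60, 64.7, 54.6 and 67.7 CPM, and Nr1h2, which encodes the receptor LXR-beta, had 161, 169, 166 and 162. For Nr1h2 the log2 fold change by number was 0.01 (SE 0.08) and its sign turned with the scaling of the libraries. Stard4, a carrier of cholesterol between membranes, had 22.3, 36.6, 14.7 and 43.1 CPM, with no direction by number.

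Between labelled genotypes, edgeR's quasi-likelihood test called 0 of the 31 members, and 0.00768% of all tested genes. At an unadjusted p under 0.05, 1 member was higher and 0 were lower in labelled flox, where 1.31% and 0.676% of all genes were. DESeq2, which called 0.0922% of all genes, and limma-voom, which called 0, also called 0 members. The gene was Stard4, for which both libraries labelled flox lay above both labelled wt (log2 fold change 1.11, SE 0.24, unadjusted p = 0.00504, edgeR adjusted p = 1). It was 1.64 times as high in flox 1 as in wt 1 (1.47 to 1.84) and 2.94 times as high in flox 2 as in wt 2 (2.57 to 3.36). Both flox libraries lay above both wt libraries for 8 members, among them Mvd, Hsd17b7, Acly and Acaca, and below them for 0, against 13.2% and 13.8% of all tested genes. For Insig1 the log2 fold change by label was 0.19 (SE 0.50).

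Levels were compared between genes as CPM per kilobase of merged exons (GENCODE M21), averaged over the 4 libraries. Acly was the most abundant at 89.1, followed by Nr1h2 at 49.1, Cyp51 at 34.7, Srebf2 at 29.8, Insig1 at 26.3 and Srebf1 at 25.4. Idi1 stood at 16.1, Hmgcs1 at 14.3, Fdps at 8.21 and Dhcr7 at 7.37. The lowest were Fads2 at 0.773, Acaca at 0.52 and Scd1 at 0.481, so that of the stearoyl-CoA desaturases Scd2, at 14.9, was the more abundant form in these libraries.

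Of 73 further genes of these pathways, 72 had a row and 67 were tested. By number 1 of the 67 passed, against 1.81% of all 13022 tested genes. It was Acsl3, which activates long-chain fatty acids by joining them to coenzyme A, with 17.7, 21.3, 4.85 and 4.74 CPM. Its log2 fold change was 2.03 (SE 0.21, edgeR adjusted p = 0.0092), with ratios of 3.65 (2.91 to 4.61) within wt and 4.5 (3.62 to 5.65) within flox. The call was lost without wt 1 (adjusted p = 0.063) or without flox 1 (0.0534). Medians of the 5 lists were near 0, from -0.13 for 9 other sterol synthesis genes to 0.08 for 17 genes of transport, storage and LXR. In the latter, Rxra, the partner of LXR, had 12.9, 12.2, 6.72 and 5.47 CPM (log2 ratio by number 1.04, SE 0.23, adjusted p = 0.109). Mylip, an LXR target that marks lipoprotein receptors for breakdown, had 54.7, 53.7, 34.8 and 39.3 CPM (0.55, SE 0.12, adjusted p = 0.0918).

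Of 10 other genes of SREBP control, 0 passed. Among the 9 other sterol synthesis genes, Aacs, which makes acetoacetyl-CoA, had 67, 65.7, 76.8 and 78.3 CPM (log2 ratio by number -0.23, SE 0.09, edgeR adjusted p = 0.356), and Lbr, a sterol reductase of the nuclear envelope, had 606, 564, 518 and 568. Of 15 genes of fatty acid oxidation 0 passed, the median log2 fold change was -0.03, and the 16 listed genes summed to about 1020 CPM in every library. Hadhb, a subunit of the trifunctional protein, had 278, 260, 236 and 243 CPM, and Pparg, a lipid-sensing receptor, stayed under 1 CPM throughout.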

How the data were processed

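The authors deposited raw counts per gene symbol, and a normalized signal for 10618 genes, for 4 libraries. The submitters' processing notes name build mm10, the aligner TopHat2 2.1.1, the counter HTSeq 0.6.1 and edgeR 3.14. For settings, annotation and strand use the entry is: not given in the sources used here. Per the labels' protocols, libraries came from an ultra-low input mRNA kit. The 5 counter summary rows (66.6% to 67.2% of column totals) were left out.

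The tests used edgeR 4.0.16 under R 4.3.3: filterByExpr (13022 genes), TMM, glmQLFit (robust), glmQLFTest, Benjamini-Hochberg adjustment over all genes. The SE is the log2 fold change over the root of F. CPM use TMM library sizes. Ratios of single libraries have exact binomial 95% intervals, which cover counting error only. Groups and numbers come from the sample titles. The labels' separate replicate tag instead gives 1 number to both wt and another to both flox libraries, and was not used. With 2 libraries against 2 an exact two-sided permutation p cannot go below 0.333, so none was run. Alternatives were DESeq2 1.42.0, limma-voom (limma 3.58.1), other scalings and filters, a block, leaving out each library, and the deposited normalized signal. The fits were tested on simulated counts.

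Members, lists and the comparison by number were chosen with earlier results of these data known. Named genes are Maf, all members, genes of the other pathway lists that were called or otherwise the 2 with the smallest p by number, and up to 3 of the most abundant markers of a list. Foxp3, Il2ra, Mki67, Cr2 and Fcgr1 were chosen after their values were seen. A few genes named by this rule are left unreported here. Older symbols were used for 4 listed genes.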

Additional observations from a re-analysis of the deposited data

How the results depend on the processing

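By number, 1 member passed under RLE, upper quartile and no scaling, with a minimum of 1 CPM and by limma-voom, 4 without a low-count filter, 6 by DESeq2 and 2 with the label as a replicate block. Leaving out 1 library gave 0 (without flox 1) to 4 members. Insig1 was the member called in each of these settings except without flox 1. Acly was lower without wt 2. DESeq2 added Dhcr7, Srebf2, Cyp51 and Idi1 as higher and Elovl6 as lower. Over all genes 236 passed by number, 589 without a filter, 640 by DESeq2, and 46 (without wt 1) to 525 (without wt 2) when a library was left out. By label 1 gene passed, 2 without a filter, 12 by DESeq2, 0 by limma-voom (171 higher and 91 lower at an unadjusted p under 0.05) and 0 to 0 without 1 library. The cause of these shifts was not tested.

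Signs near 0 turned. With library totals unscaled, log2 fold changes by number were -0.005 for Sc5d, -0.048 for Srebf1, -0.04 for Fads1, -0.009 for Stard4, -0.023 for Abcg1 and -0.049 for Nr1h2. With upper quartile scaling they were -0.008 for Srebf1, -0.004 for Fads1 and -0.009 for Nr1h2, and limma-voom gave -0.017 for Fads1. Without 1 library, values ran from -0.323 to 0.018 for Acat2, -0.214 to 0.518 for Mvd, -0.416 to 0.042 for Hsd17b7, -0.007 to 0.107 for Sc5d, -0.057 to 0.068 for Srebf1, -0.381 to 0.114 for Acaca, -0.192 to 0.145 for Scd2, -0.237 to 0.232 for Fads1, -0.553 to 1.003 for Stard4, -0.123 to 0.189 for Abcg1 and -0.022 to 0.036 for Nr1h2. The lone library left in a group is assumed to vary like the others.

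The labels do not say what a number shares. The differences of library 1 from library 2 within wt and within flox correlated at 0.264 across 13022 genes, which are not independent. With the number as a replicate block, 1 gene and 0 members passed by label.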
